A study of Mus musculus with 8 samples.

Results

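Sinusoidal endothelial cells and hepatic stellate cells are followed here through 34 genes in mouse liver RNA, 20 of them genes of the endothelium and 14 of stellate cells. The genes were taken from a fixed list by their symbols, and all 34 were found once among the 55487 genes of the count table. The 8 livers came from male mice of the inbred strain C57Bl/6J aged about 10 weeks. In the control group 4 libraries were made after a gavage of water, and in the sorbate group 4 libraries after potassium sorbate, a preservative in foods, had been gavaged at 17 mg. All livers were collected 4 hours after the gavage. The mice are labelled with no transgene, deletion or further treatment, and the labels do not say whether each library is a separate animal, so the tests measure the spread between these libraries. The comparison asks which transcripts of these cells differ in level between sorbate and water.

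Liver sinusoids are capillaries whose endothelium has open pores and no continuous basement membrane, and their cells clear waste macromolecules from blood through scavenger receptors. Stellate cells lie between that endothelium and the hepatocytes, store vitamin A as retinyl esters, and make collagen after activation by injury. Endothelial cells also send signals to their neighbours, among them bone morphogenetic proteins that set hepcidin, and under inflammatory cytokines they display adhesion molecules that hold leukocytes.

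Total counts per library ran from 15773932 to 25844731. Levels are given in CPM, the count divided by a library size in megareads that was adjusted by TMM, edgeR's trimmed mean of M-values. A change was called at an adjusted p of 0.05 in edgeR's quasi-likelihood test over all 13312 genes that passed a filter on low counts. Control 2 stood apart from the other controls on the first principal component of all tested genes (53.6% of the variance), with a score of 15.4 against −49.1 to −42.1 in controls 1, 3 and 4 and 21.9 to 37.8 in the sorbate libraries. Counts of calls in each gene list are given with and without it. Control 2 was picked out from these same data, and the labels give no reason to leave it out. Because it lies near the sorbate libraries, leaving it out tends to widen differences. Calls and p-values without it are therefore descriptions and no independent evidence of a change. Without it 29.3% of all genes tested were called, 14.1% as lower and 15.1% as higher, shares that belong beside each such count. The labelled tissue carried its defining markers, as 10 hepatocyte markers summed to 74370 to 111853 CPM over the 8 libraries. The tissue was sequenced whole, so fewer cells of a type and less RNA per cell cannot be told apart.

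Scaled to gene length, in reads per kilobase of merged exon and megaread, the control levels of the 34 genes ranged from 24.1 ± 8.55 for Clec4g to 0.0299 ± 0.0598 for Sele (SD, n = 4). The 2 next levels, those of the stellate genes Ecm1 (20.9 ± 5.03) and Dcn (14.8 ± 2.79), differed from it and from each other by less than the sum of their SDs. Ecm1, which encodes a secreted matrix glycoprotein, is also transcribed in hepatocytes, so its level is not one of stellate cells alone. From Eng (7.63 ± 2.22) down to Des (0.728 ± 0.148) neighbouring genes in the order differed by less than the sum of their SDs. With sorbate the order began with Ecm1 (24.6 ± 4.71), Dcn (13.9 ± 3.47) and Clec4g (12.5 ± 1.17), and Icam1 moved from place 13 to place 23 of the 34.

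**Figure D1:**
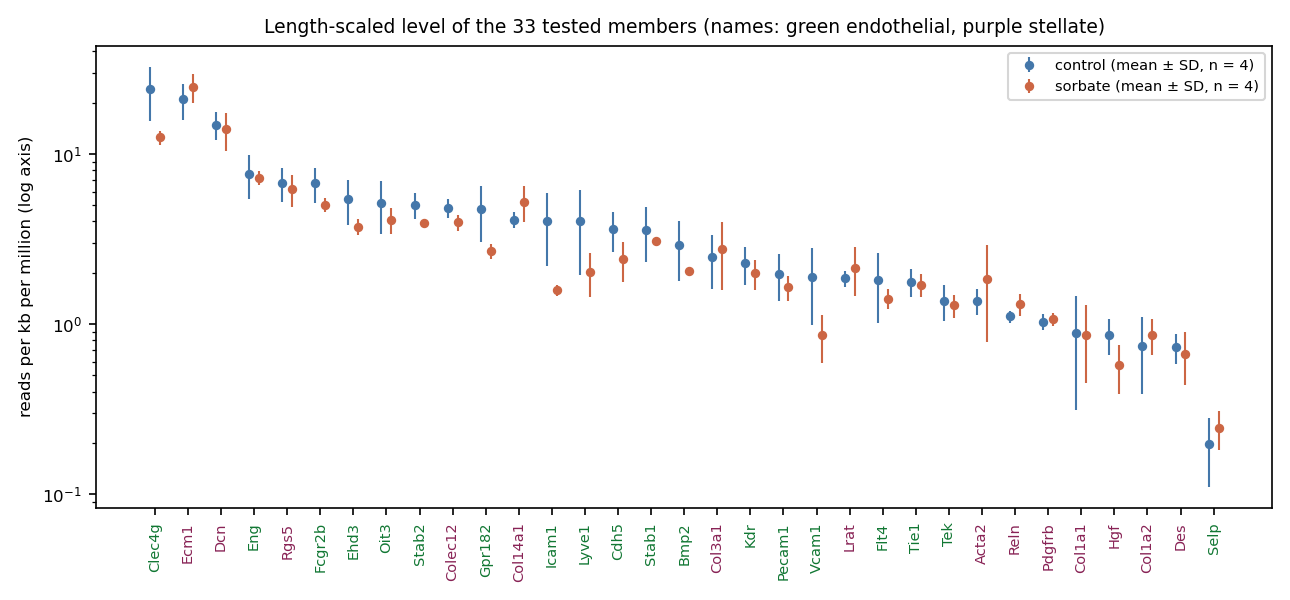
Length-scaled levels of the 33 members tested, in reads per kilobase of merged exon and megaread on a log axis, ordered by the control mean; points are means and bars are SDs of 4 libraries. Clec4g stood at 24.1 in the controls and 12.5 with sorbate, whereas the stellate genes Ecm1 and Dcn stood at 20.9 and 14.8 in the controls and at 24.6 and 13.9 with sorbate.

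Most endothelial transcripts were lower with sorbate than in 3 of the 4 controls, and the other control was as low as the sorbate libraries, while no stellate transcript passed the test. With all 8 libraries, 2 of the 19 endothelial genes tested fell, Icam1 and Clec4g, and 0 rose. Among all genes tested 12.4% were called in either direction, 6.30% as lower and 6.14% as higher, so 2 of 19, or 10.5%, is a share near that background. None of the 14 stellate genes was called in either direction by edgeR, and 1 had an unadjusted p under 0.05 against 9 of the 19 endothelial genes. The limma-voom test with sample quality weights called 1 stellate gene and the DESeq2 test 0, where these tests called 29.4% and 18.4% of all genes. The fitted log2 change was negative in 18 of the 19 endothelial genes and in 6 of the 14 stellate genes. Their medians were −0.37 and 0.11, beside −0.02 over all genes tested. In none of the 33 genes tested did the groups fail to overlap, where 17.7% of all genes showed no overlap, 8.32% being lower and 9.42% higher with sorbate.

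Control 2 lay apart from the other controls in the endothelial genes. This library was the lowest control in 18 of the 19 endothelial genes and the lowest of all 8 libraries in 9 of them. Over all tested genes it was the lowest control in 33.8% and the lowest library in 13.1%. In the stellate genes control 2 was also low, as the lowest control in 12 of 14 and the lowest library in 8. Controls 1, 3 and 4 lay above every sorbate library in 16 of the 19 endothelial genes, the exceptions being Tek, Tie1 and Selp, and in 1 of the 14 stellate genes, Hgf. Over all genes tested without control 2, 18.8% showed this order.

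Without control 2 the test called 14 of the 19 endothelial genes lower and 0 higher, and 1 of the 14 stellate genes lower and 0 higher. Among all 13559 genes then tested 29.3% were called, 14.1% as lower and 15.1% as higher. The medians were −0.57 for the endothelial genes, 0.00 for the stellate genes and 0.00 for all genes. Leaving out any of the 7 other libraries left 0 calls in both gene groups, where 5.1% to 8.34% of all genes were called. Whether endothelial and stellate genes differ in their response was not tested as such, since the genes were chosen with earlier results known.

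**Figure D2:**
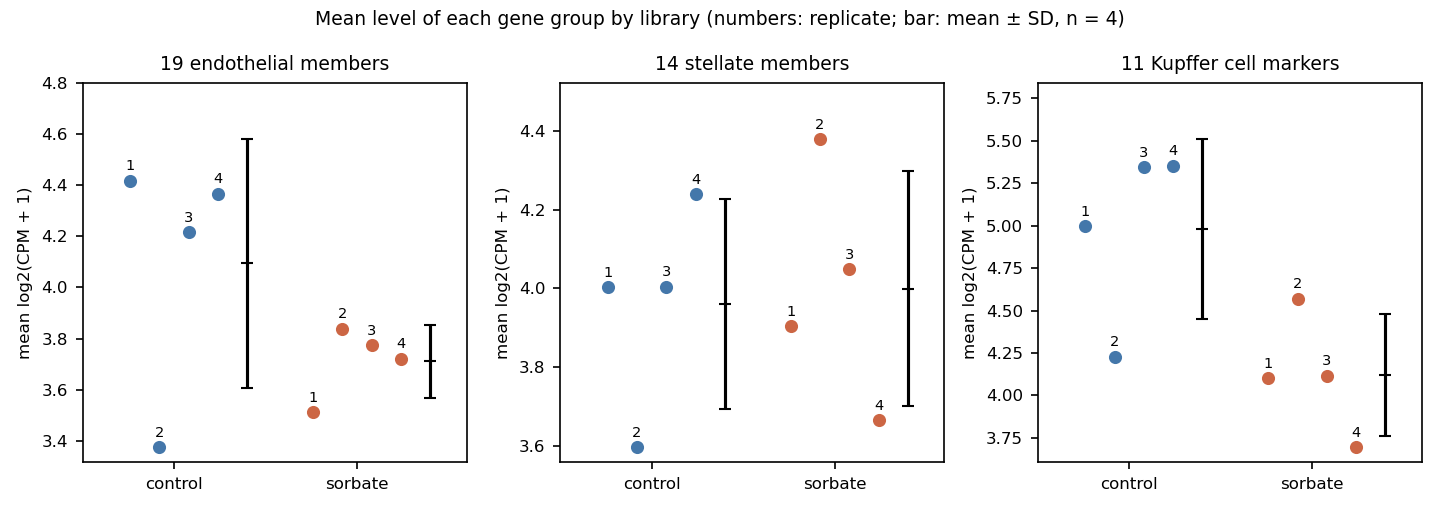
Mean log2(CPM + 1) of the 19 endothelial genes tested, the 14 stellate genes and 11 Kupffer cell markers in each library, with the mean and SD of each group of 4; numbers are replicates. Endothelial levels were 4.42, 4.22 and 4.37 in controls 1, 3 and 4, 3.38 in control 2 and 3.51 to 3.84 with sorbate, while the stellate levels of the groups spanned 3.60 to 4.24 and 3.67 to 4.38.

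**Figure D3:**
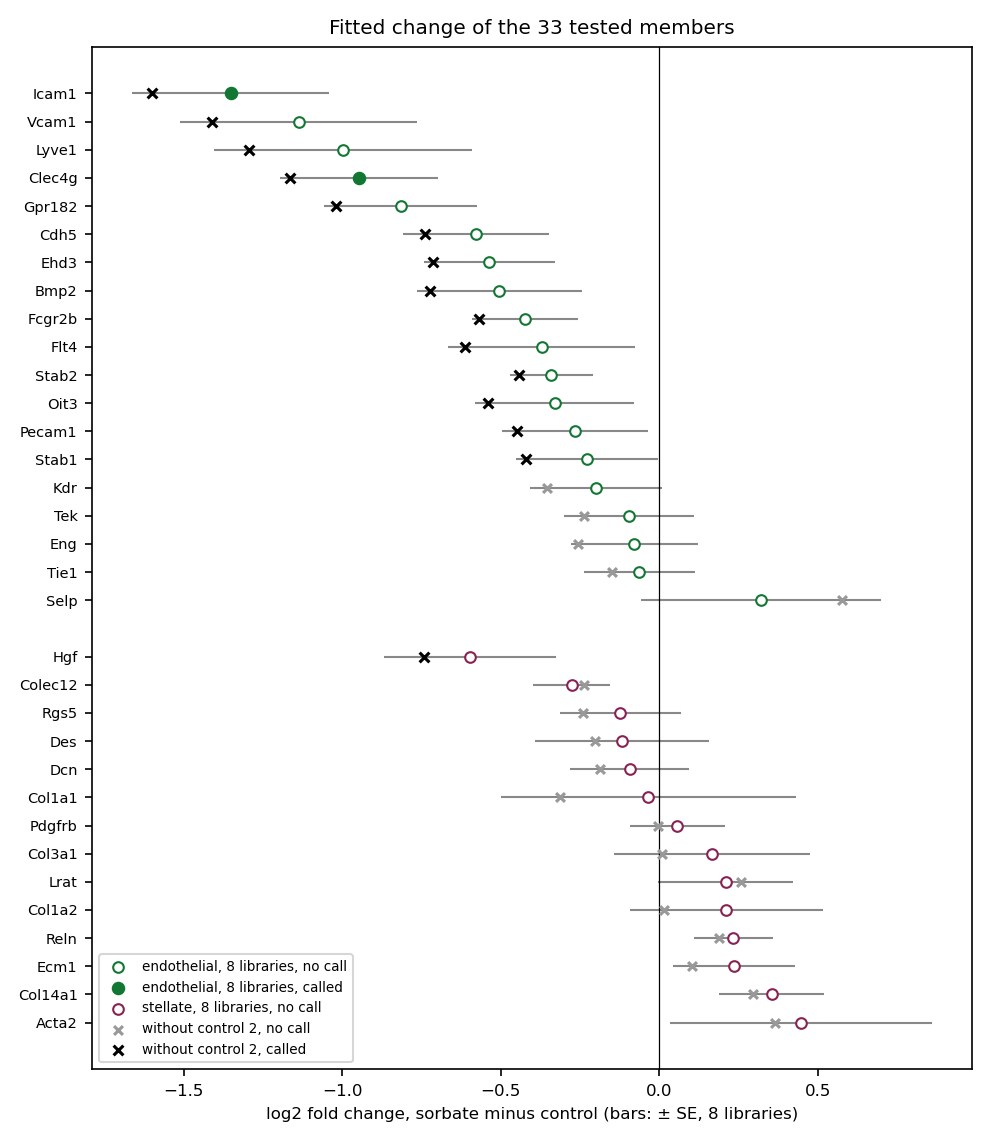
Log2 fold change (sorbate minus control) of the 33 genes tested with all 8 libraries, with its SE, and the value without control 2 as a cross. Filled points and black crosses passed the adjusted p of 0.05: 2 endothelial genes with 8 libraries, and 14 endothelial and 1 stellate gene without control 2.

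The scavenger and sinusoidal receptors include Clec4g, the endothelial gene with the highest length-scaled level. Clec4g (ENSMUSG00000074491, chromosome 8, 3707064 to 3720651, minus strand of GRCm38) encodes LSECtin, a C-type lectin of sinusoidal endothelium that binds glycans on pathogens and T cells. It stood at 66.3, 28.3, 67.1 and 75.4 CPM in controls 1 to 4 and at 28.7, 33.6, 32.8 and 27.9 CPM in sorbate 1 to 4. The sorbate libraries lay close together, controls 1, 3 and 4 were above all of them, and control 2 fell among them. The means were 59.2 ± 21.1 and 30.7 ± 2.88 CPM (SD, n = 4), a log2 change of −0.95 (SE 0.25, adjusted p = 0.0329 in edgeR's quasi-likelihood test). Without control 2 it was −1.17 (adjusted p = 2.46e-05). The call was lost when any other library was left out (−0.99 to −0.81, adjusted p up to 0.0969).

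As Clec4g and Icam1 were the genes called, the 250 bases before their RefSeq start sites (GRCm38.p6) are shown 5′ to 3′ on the gene's strand, with matches to 3 motifs in capitals. The motifs were searched on both strands: the kB letters GGANNNTCC for NF-kB, the transcription factor of inflammatory signalling, the core CCGGAA of ETS factors, which act in endothelial genes, and TATAAA for the TATA box. Clec4g (chr8:3720652-3720901, minus strand) held a TATA match on the reverse strand, 31 bases before the start, and no match to the other motifs in this window.
Clec4g: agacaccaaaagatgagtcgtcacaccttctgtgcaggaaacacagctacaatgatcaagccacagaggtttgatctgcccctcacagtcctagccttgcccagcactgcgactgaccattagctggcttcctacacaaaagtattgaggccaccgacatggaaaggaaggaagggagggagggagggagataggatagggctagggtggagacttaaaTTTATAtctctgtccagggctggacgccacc
Icam1 (chr9:21015690-21015939, plus strand) held a kB match, GGAAATTCC, beginning 153 bases before the RefSeq start and ETS matches beginning 86, 65 and 39 bases before it, the 65 one on the reverse strand. No match overlapped another.
Icam1: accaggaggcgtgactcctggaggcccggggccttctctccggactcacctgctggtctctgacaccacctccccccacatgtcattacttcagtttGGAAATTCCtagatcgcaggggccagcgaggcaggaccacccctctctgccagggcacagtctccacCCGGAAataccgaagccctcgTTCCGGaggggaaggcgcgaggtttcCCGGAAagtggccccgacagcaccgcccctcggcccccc
The GENCODE start of Icam1 lies 45 bases further downstream, so distances depend on the annotation. RefSeq windows were matched for 22 of the 34 genes, 13 endothelial and 9 stellate. The kB letters occurred in 4 of the 13 endothelial genes (Sele, Icam1, Stab2 and Flt4) and in 1 of the 9 stellate genes (Ecm1), beside 7.27% of all 32851 promoter windows. The ETS core occurred in 2 (Kdr and Icam1) and 1 (Reln), beside 12% of all windows, and TATAAA in 2 (Sele and Clec4g) and 2 (Col3a1 and Ecm1), beside 12.4%. These matches are letters in the sequence and no measure of binding.

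Of the other 7 scavenger and sinusoidal receptor genes none passed the test with all 8 libraries, and all 7 had negative fitted changes. Gpr182, an atypical chemokine receptor of lymphatic and sinusoidal endothelium, came nearest. Its levels were 25.5, 9.66, 18.3 and 21.4 CPM in controls 1 to 4 and 9.46, 10.98, 11.98 and 10.2 CPM in sorbate 1 to 4 (log2 change −0.82, SE 0.24, adjusted p = 0.0515). The DESeq2 test, the fit with no filter on low counts and limma-voom with sample quality weights called it lower. Lyve1, the hyaluronan receptor, had the widest control spread relative to its mean of the 19, with 15.6, 3.24, 11.5 and 16.5 CPM, and stood at 3.89, 6.22, 7.96 and 5.48 CPM with sorbate (log2 change −0.998, SE 0.41, adjusted p = 0.132). Control 2 was thus the lowest of all 8 libraries for Lyve1.

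The stabilins, scavenger receptors of sinusoidal endothelium, had smaller fitted changes. Stab2 stood at 32.9 to 51.1 CPM in the controls and 32.7 to 35.6 CPM with sorbate (log2 change −0.34, SE 0.13, adjusted p = 0.113). Stab1, which macrophages also carry, stood at 20.1 to 47.6 and 30.01 to 32.8 CPM (−0.23, SE 0.22, adjusted p = 0.532). For both genes the controls ranged wider than the sorbate libraries. Fcgr2b, an Fc receptor that clears small immune complexes in the sinusoid and is also present on B cells and macrophages, stood at 25.5 to 44.5 and 25.4 to 31.5 CPM (−0.42, SE 0.17, adjusted p = 0.122). The endocytic trafficking gene Ehd3 (−0.54, SE 0.21) and Oit3 (−0.33, SE 0.25), which serves as a sinusoidal endothelial marker, did not pass either (adjusted p = 0.113 and 0.41). Without control 2 all 8 genes of this set were lower in the test, beside 14.1% of all genes. Their log2 changes ran from −1.30 for Lyve1 to −0.42 for Stab1, with adjusted p up to 0.0304 in edgeR's test.

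**Figure D4:**
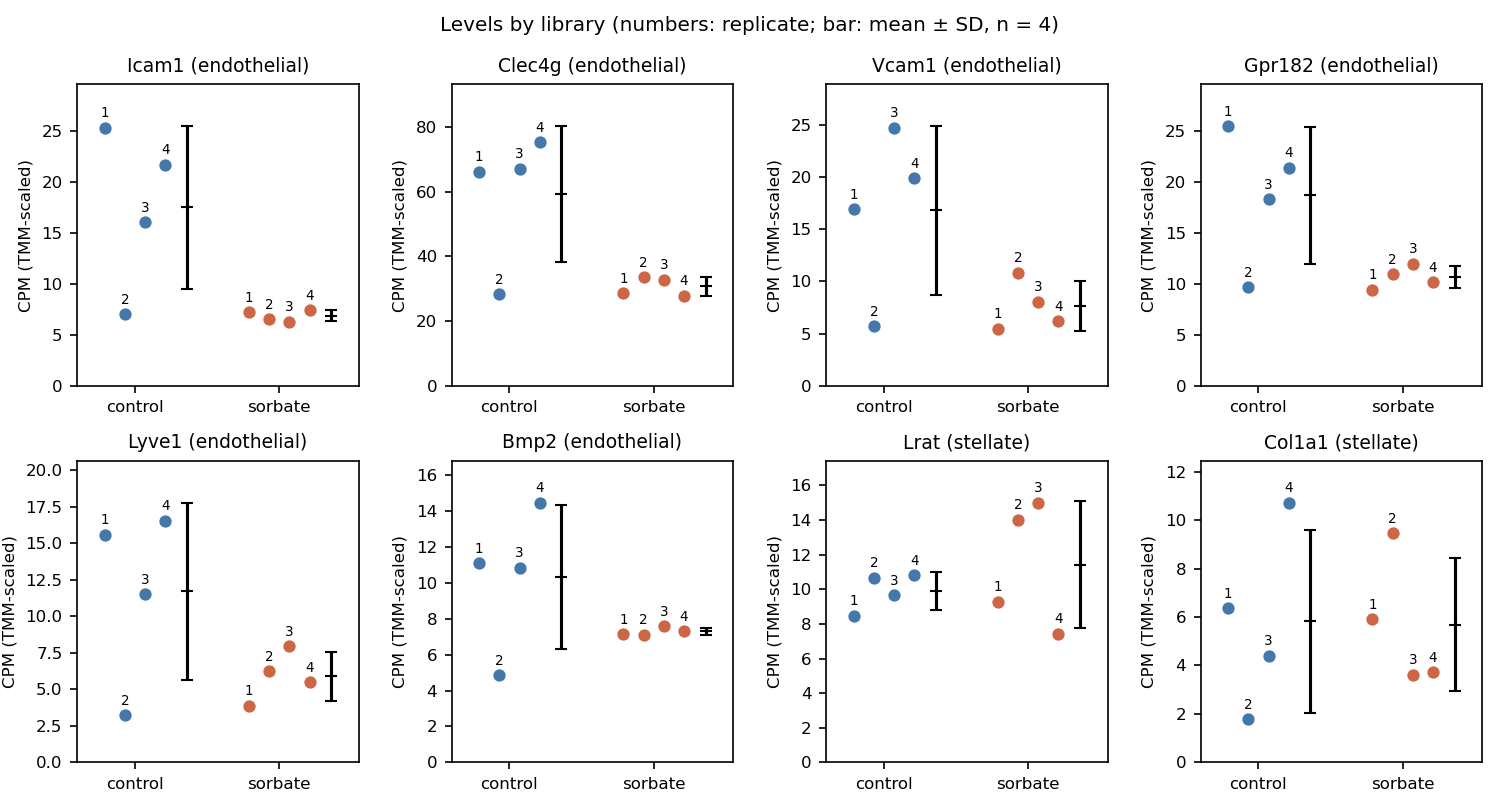
CPM of 6 endothelial and 2 stellate genes in each library; numbers are replicates, bars are mean ± SD of 4 libraries, and the axes start at 0. Control 2 lay with the sorbate libraries for Icam1 (7.04 against 6.31 to 7.42 CPM) and Clec4g (28.3 against 27.9 to 33.6 CPM), while the groups overlapped for Lrat and Col1a1 with all controls.

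Genes of endothelial junctions and growth factor receptors showed small fitted changes, from −0.58 to −0.06 on the log2 scale, and 0 of 7 was called with all 8 libraries, 1 having an unadjusted p under 0.05. Cdh5, which encodes VE-cadherin of the adherens junction, stood at 18.3, 9.27, 16.6 and 16.2 CPM in controls 1 to 4 and at 7.89, 13.9, 10.1 and 8.58 CPM in sorbate 1 to 4 (log2 change −0.58, SE 0.23, adjusted p = 0.125). Pecam1, the junctional adhesion molecule CD31, stood at 6.87 to 15.3 and 8.15 to 12.3 CPM (−0.26, SE 0.23, adjusted p = 0.474). In both genes control 2 lay within or below the sorbate range.

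Among the receptors, those for vascular endothelial growth factors had log2 changes of −0.20 for Kdr (VEGFR2, SE 0.21) and −0.37 for Flt4 (VEGFR3, SE 0.30). The angiopoietin receptor Tek stood at 7.17, 4.25, 6.62 and 7.82 CPM in the controls and at 4.86, 6.98, 6.59 and 5.84 CPM with sorbate (−0.095, SE 0.21). Its partner Tie1 (−0.06, SE 0.17) and the TGF-beta co-receptor endoglin, Eng (−0.08, SE 0.20), were as close to 0. The sign of these 3 was not stable, since scaling by library size alone gave 0.040 for Tek, 0.069 for Tie1 and 0.058 for Eng. Exons of Eng overlap those of the antisense gene Fpgs, which was more abundant (171.6 and 110.0 CPM over the whole gene). The longest shared stretch is 61 bases, where Eng has 4.048 kb of merged exon. Without strand information their reads cannot be told apart in that stretch. Without control 2 Cdh5 (−0.74), Flt4 (−0.61) and Pecam1 (−0.45) were called lower, and Kdr, Eng, Tek and Tie1 were not (adjusted p from 0.0988 to 0.529).

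Of the inducible adhesion molecules Icam1 fell. Icam1 (ENSMUSG00000037405, chromosome 9, 21015985 to 21028817, plus strand of GRCm38) encodes the ligand by which endothelium, and under cytokines also hepatocytes and other cells, arrests leukocytes through beta-2 integrins. It stood at 25.3, 7.04, 16.1 and 21.7 CPM in controls 1 to 4 and at 7.25, 6.53, 6.31 and 7.42 CPM in sorbate 1 to 4. The sorbate libraries were tightly grouped, and control 2 lay among them. The means were 17.5 ± 7.97 and 6.88 ± 0.540 CPM (SD, n = 4), a level 2.55-fold lower in the fit (log2 change −1.35, SE 0.31, adjusted p = 0.0204 in edgeR's quasi-likelihood test). Without control 2 the log2 change was −1.60 (adjusted p = 2.98e-05), and the call was lost when any other library was left out (−1.39 to −1.12, adjusted p up to 0.0628). The kB match shown above lies in this gene's promoter window.

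Vcam1, which binds the integrin VLA-4 of lymphocytes and monocytes, stood at 16.9, 5.70, 24.7 and 19.9 CPM in the controls and at 5.46, 10.8, 8.05 and 6.21 CPM with sorbate. Its log2 change of −1.14 (SE 0.37) did not pass the test (adjusted p = 0.071), and it was −1.41 without control 2 (adjusted p = 6.15e-04). The selectins, which start leukocyte rolling, were near the limit of detection. Sele, E-selectin, had 7 counts over the 4 controls, all in control 1, and 7 over the 4 sorbate libraries, and was too low to be tested. In controls 2 to 4 its count of 0 allows up to 0.145 to 0.168 CPM, by counting error only. Selp, P-selectin, which platelets also carry, stood at 0.394 to 1.28 and 0.686 to 1.34 CPM (log2 change 0.32, SE 0.38, adjusted p = 0.605), the only endothelial gene tested with a positive value. Exons of Selp overlap 2 antisense genes, of which Gm16548 averaged 17.3 CPM over its whole length in the controls. The longest stretch it shares with Selp is 325 bases, where Selp has 4.413 kb of merged exon.

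The leukocyte side of these contacts is a list of 12 genes, of which 10 were tested, 1 fell and 0 rose, with a median log2 change of −0.51. The gene that fell was Itgal, the alpha chain of LFA-1, the integrin that binds Icam1. It stood at 11.2, 6.37, 12.5 and 12.6 CPM in the controls and at 5.42, 6.58, 5.53 and 5.23 CPM with sorbate (log2 change −0.91, SE 0.21, adjusted p = 0.0206), so that control 2 lay just under the highest sorbate library. Its call held without control 2 (−1.08) and without sorbate 2 (−0.98) and was lost without any of the other 6 libraries. Its beta chain Itgb2 (−0.74, SE 0.36, adjusted p = 0.2), the VLA-4 chain Itga4 (−0.54, SE 0.36, adjusted p = 0.341) and the selectin ligand Selplg (−0.59, SE 0.41, adjusted p = 0.363) did not pass. Without control 2 Itgb2 (−0.97, adjusted p = 0.0191) and Selplg (−0.86, adjusted p = 0.046) were called lower and Itga4 was not (adjusted p = 0.0713). The list then had 5 of 11 genes lower and 0 higher, beside 14.1% and 15.1% of all genes, with a median of −0.68. Itgam and Fut7, with 32 and 6 counts over the 4 controls, were too low to be tested.

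Bmp2, which sinusoidal endothelium secretes and which with Bmp6 drives hepcidin in hepatocytes, stood at 11.1, 4.86, 10.8 and 14.5 CPM in controls 1 to 4. In sorbate 1 to 4 it stood at 7.14, 7.11, 7.59 and 7.30 CPM. The sorbate libraries differed from each other by under 1 CPM, controls 1, 3 and 4 were above them, and control 2 was below all of them. The log2 change was −0.50 (SE 0.26, adjusted p = 0.225), and −0.72 without control 2 (adjusted p = 0.00231). Bmp6 averaged 1.72 ± 0.192 and 2.18 ± 0.551 CPM (0.34, SE 0.25, adjusted p = 0.397). Hamp, the hepcidin gene, averaged 551.6 ± 111.5 and 608.2 ± 308.0 CPM (SD, n = 4), with sorbate values from 240.1 to 937.0 CPM (0.14, SE 0.34, adjusted p = 0.817; −0.14 without sorbate 3). Of the 25 genes of this axis tested 1 fell and 0 rose, with a median of 0.08, and without control 2 the counts were 2 lower and 1 higher. The gene that fell was Id3, a target of BMP signalling (48.2 ± 11.9 to 25.5 ± 7.91 CPM, log2 change −0.92, SE 0.26, adjusted p = 0.0416). Its call held without control 2 (−0.83) and without control 3 (−1.09) and was lost without any of the other 6 libraries. The related genes Id1 (0.03, SE 0.41), Id2 (−0.30, SE 0.14) and Id4 (−0.08, SE 0.39) were not called. Neither were Smad6 (0.25, SE 0.25) and Smad7 (0.05, SE 0.28). Whether BMP signalling changed was not tested.

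Other genes of sinusoidal endothelium were seldom called. Of 34 tested, 1 fell and 0 rose, or 2.94% called beside 12.4% of all genes. Of the fitted values 25 were negative and 9 positive, and the median log2 change was −0.29. The gene that fell was Thbd, thrombomodulin, an anticoagulant cofactor on endothelium, with 10.6, 1.45, 4.79 and 6.54 CPM in the controls and 1.42 to 2.58 CPM with sorbate (log2 change −1.71, SE 0.48, adjusted p = 0.0423). Its call held only without control 2 (−2.02) among the 8 leave-outs. Without control 2, 13 of the 34 were lower and 1 higher, beside 14.1% and 15.1% of all genes, with a median of −0.43. Markers of large vessel endothelium showed 0 calls among 7 tested, with 0 of them at an unadjusted p under 0.05 and a median of −0.11, and 0 of 8 was called without control 2.

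Ligands for the endothelial receptors were not called with all 8 libraries. Of 9 VEGF and angiopoietin genes tested 0 rose and 0 fell, 2 having an unadjusted p under 0.05, with a median log2 change of 0.00, and without control 2 the list had 1 higher and 1 lower. Vegfa, the main ligand of Kdr, averaged 112.1 ± 27.3 and 156.1 ± 29.0 CPM (0.48, SE 0.18, adjusted p = 0.111; 0.66 and adjusted p = 0.00837 without control 2). Vegfd had the lowest p of the list (1.20, SE 0.44, adjusted p = 0.0955 in edgeR's test). Its levels of 0.0996 to 0.483 CPM in the controls and 0.549 to 1.10 CPM with sorbate did not overlap. Among all genes tested 9.42% were higher with sorbate without overlap. At such low levels Vegfd could pass the filter through the sorbate libraries alone, so the lack of overlap is no support for a rise. Of 4 Wnt and R-spondin genes tested, the endothelial signals that maintain pericentral hepatocytes, 0 was called, 0 had an unadjusted p under 0.05, and the lowest p values belonged to Wnt4 (0.34, SE 0.31) and Wnt9b (−0.36, SE 0.36). Without control 2, 0 of these 4 was called.

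Identity genes of stellate cells showed no called change. Lrat, the enzyme that esterifies retinol for storage, stood at 8.46, 10.7, 9.67 and 10.8 CPM in controls 1 to 4 and at 9.27, 14, 15.0 and 7.42 CPM in sorbate 1 to 4. Its log2 change was 0.21 (SE 0.21, adjusted p = 0.546), the control libraries lying inside the sorbate range. Reln, which encodes the secreted protein reelin, had narrow spreads, with 27.4, 23.1, 27.1 and 27.4 CPM in the controls and 26.1, 35.7, 33.8 and 27.99 CPM with sorbate (0.23, SE 0.12, adjusted p = 0.237). Pdgfrb, the receptor through which platelet-derived growth factor drives stellate cell proliferation, stood at 4.75 to 6.05 and 5.29 to 6.45 CPM (0.06, SE 0.15, adjusted p = 0.833).

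Colec12, a scavenger receptor with a collagen-like stalk, had the lowest unadjusted p of this set, at 36.2, 44.2, 47.9 and 38.6 CPM in the controls and 30.3, 34.5, 39.2 and 33.9 CPM with sorbate (−0.28, SE 0.12, adjusted p = 0.158). In this gene control 2 was not low. Rgs5, a regulator of G protein signalling in pericytes, stood at 21.8 to 37.8 and 22.5 to 33.7 CPM (−0.12, SE 0.19). The intermediate filament gene Des (−0.12, SE 0.27) and the smooth muscle actin gene Acta2 (0.45, SE 0.41) rested on few reads, at 217 and 238 counts over the 4 controls. Acta2, the usual marker of activated stellate cells, which smooth muscle also expresses, stood at 2.79, 2.35, 3.34 and 3.49 CPM in the controls and at 4.19, 6.71, 4.25 and 1.03 CPM with sorbate. Sorbate 1 to 3 lay above all controls and sorbate 4 below them, and without sorbate 4 the log2 change was 0.75 (adjusted p = 0.104).

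The collagens and matrix genes varied among libraries of 1 group more than between groups. Col1a1, the alpha-1 chain of type I collagen, stood at 6.37, 1.79, 4.40 and 10.7 CPM in controls 1 to 4 and at 5.91, 9.47, 3.61 and 3.71 CPM in sorbate 1 to 4 (log2 change −0.03, SE 0.47, adjusted p = 0.972). Col1a2, the partner chain, stood at 4.80 to 15.2 and 8.28 to 13.8 CPM (0.21, SE 0.30), and Col3a1, type III collagen, at 15.0 to 35.4 and 15.8 to 41.8 CPM (0.17, SE 0.31). Control 4 was the highest control in 5 of the 6 matrix genes, control 2 the lowest in all 6, and sorbate 2 the highest sorbate library in 5. The fitted value of Col1a1 therefore ran from −0.39 without sorbate 2 to 0.44 without control 4.

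Col14a1, a collagen that associates with fibrils, stood at 30.1, 24.4, 28.8 and 31.5 CPM in the controls and at 32.8, 45.9, 41.3 and 26.6 CPM with sorbate (0.35, SE 0.17, adjusted p = 0.182). Sorbate 1 to 3 were above all controls and sorbate 4 was not. Dcn, the small proteoglycan decorin, stood at 67.3 to 102.1 and 65.3 to 108.4 CPM (−0.09, SE 0.19), and Ecm1 at 35.9 to 63.8 and 50.5 to 72.5 CPM (0.24, SE 0.19, adjusted p = 0.441). Among the 14 stellate genes sorbate 2 was the highest sorbate library in 10, and sorbate 1 and sorbate 4 were each the lowest in 6.

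Hgf encodes the growth factor that stellate and endothelial cells send to hepatocytes. Its fitted change was the most negative of the 14 stellate genes, and it was not called with all 8 libraries. It stood at 6.52, 4.02, 7.06 and 7.13 CPM in controls 1 to 4 and at 2.35, 5.51, 4.48 and 4.08 CPM in sorbate 1 to 4. Controls 1, 3 and 4 were above all sorbate libraries, as in most endothelial genes. The log2 change was −0.60 (SE 0.27, adjusted p = 0.17), and −0.74 without control 2 (adjusted p = 0.0384). Its receptor Met rose, from 59.4, 93.8, 71.4 and 68.2 CPM to 100.8, 99.4, 131.1 and 148.3 CPM, with no overlap (log2 change 0.71, SE 0.17, adjusted p = 0.0255). The call of Met held without control 2 (0.86), sorbate 1 (0.79) and sorbate 2 (0.79) and was lost without any of the other 5 libraries (adjusted p up to 0.0783). In the list of 8 genes of HGF activation 6 were tested, and Met was the 1 that rose while 0 fell, and without control 2 the list had 1 of 8 higher and 0 lower.

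Of 28 other stellate cell genes tested 1 rose and 2 fell, with a median log2 change of 0.09, and without control 2 the counts were 1 higher and 3 lower. Steap4, a metalloreductase, fell by 2.88 (SE 0.60, adjusted p = 0.0133) from 1392 ± 968 CPM to 189.0 ± 34.5 CPM, levels far above those of the stellate genes described here, and hepatocytes also express it. Its call held in all 8 leave-outs (−3.24 to −2.42). Ank3, an ankyrin that links membranes to the cytoskeleton, rose by 1.13 (SE 0.29, adjusted p = 0.0293), a call that held without control 2 (1.47) and without sorbate 1 (1.22) and was lost without any of the other 6 libraries.

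Of 13 PDGF and TGF-beta genes tested 1 rose and 1 fell, with a median of 0.16, and without control 2 the counts were 1 higher and 3 lower. Pdgfc, a ligand of the alpha receptor for platelet-derived growth factor, fell from 6.92, 3.07, 7.45 and 11.1 CPM to 1.76, 2.31, 2.24 and 1.83 CPM (log2 change −1.81, SE 0.33, adjusted p = 0.00849), with control 2 above every sorbate library. Its call held in all 8 leave-outs (−2.05 to −1.51). Tgfbr2, the TGF-beta type II receptor, rose from 16.9 ± 3.56 to 29.2 ± 6.81 CPM (0.78, SE 0.19, adjusted p = 0.0255), a call lost without control 3, control 4, sorbate 2 or sorbate 4 (0.64 to 0.89 over the 8 leave-outs, adjusted p up to 0.0848).

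Of 28 genes of matrix and its turnover 1 rose and 1 fell, with a median of −0.08. Without control 2, 8 of the 28 were lower and 1 higher, beside 14.1% and 15.1% of all genes, with a median of −0.20. Col15a1, a collagen of vascular basement membranes, fell from 18.3, 10.3, 14.6 and 18.3 CPM to 4.30, 7.02, 4.12 and 4.44 CPM (log2 change −1.63, SE 0.23, adjusted p = 0.00264). The groups did not overlap even with control 2, and the call held in all 8 leave-outs (−1.84 to −1.53). Timp3, an inhibitor of matrix metalloproteinases, rose by 0.52 (SE 0.15, adjusted p = 0.0491), a call that held only without control 2 (0.42) among the leave-outs.

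Kupffer cell markers, like most endothelial genes, had negative fitted changes. Of 11 such markers 7 fell and 0 rose, beside 6.30% and 6.14% of all genes, with a median log2 change of −0.98. Of the 19 endothelial genes tested 2 fell. The lowest p values belonged to Timd4 (−1.06, SE 0.25), Vsig4 (−1.04, SE 0.27) and Cd5l (−1.07, SE 0.29). Without control 2, 10 of the 11 were lower, beside 14.1% of all genes, with a median of −1.18. Each of the 7 calls held in only 1 or 2 of the 8 leave-outs. Their summed level was 521.9, 280.6, 678.7 and 674.1 CPM in controls 1 to 4 and 200.4 to 389.8 CPM with sorbate. Control 2 was thus low in these markers too, and none of the 11 was at 0. The summed level of the 20 endothelial genes was 494.0, 230.4, 438.8 and 490.1 CPM in the controls and 257.9 to 315.9 CPM with sorbate, and that of the 14 stellate genes was 328.0, 262.1, 354.2 and 388.7 CPM and 278.8 to 430.5 CPM. The part of macrophages in the endothelial differences was not tested.

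Of 6 monocyte markers tested 1 fell and 0 rose (Plac8, −1.39, SE 0.37), and their list summed to 48.5 to 99.7 CPM in the controls and 39.2 to 70.5 CPM with sorbate. The call of Plac8 held in 2 of the 8 leave-outs. Without control 2 the filter on low counts passed 8 monocyte markers instead of 6. Of these 5 were lower, beside 14.1% of all genes, with a median of −0.92. Both neutrophil markers tested of 10 fell (S100a9, −4.92, SE 0.98, and Csf3r, −1.40, SE 0.39), with sums of 2.23 to 27.9 and 1.10 to 2.93 CPM, the lowest control being control 2. The call of S100a9 held in all 8 leave-outs and that of Csf3r in 1. Without control 2 the filter on low counts passed 5 neutrophil markers instead of 2, and all 5 were lower. Markers that pass only then, here and in the monocyte and red blood cell lists, can do so through controls 1, 3 and 4 alone. Where they are high in those controls, the filter itself favours a lower call, so such calls add no support. Of 5 red blood cell genes tested 4 fell, with sums of 331.4 to 1376 CPM and 251.2 to 372.9 CPM, again lowest of the controls in control 2. Without that library the filter passed 6 instead of 5. Of these 5 were lower and 1 higher, beside 14.1% and 15.1% of all genes. The gene added, Slc4a1, had 167 counts over the 4 controls and 18 over the 4 sorbate libraries. The B cell marker tested, Ighm, fell (−1.47, SE 0.37), with sums of 10.6 to 21.2 and 3.53 to 11.02 CPM, and the T and NK cell marker tested, Cd4, was not called (−0.04, SE 0.35), with sums of 2.61 to 5.25 and 2.25 to 5.44 CPM, and without control 2 both had the same calls. No marker in these lists was at 0 in all 8 libraries. Their part in the endothelial differences was not tested.

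Markers of cells near stellate cells were mostly uncalled. Of 6 smooth muscle markers tested 0 was called, 1 having an unadjusted p under 0.05, with a median log2 change of 0.34 and sums of 13.02 to 21.3 CPM in the controls and 10.3 to 36.01 CPM with sorbate, and the highest of all was sorbate 2. Of 6 portal fibroblast markers and 3 mesothelial markers tested 0 was called and 0 had an unadjusted p under 0.05. Without control 2, 0 was called in these 3 lists. Of 6 cholangiocyte markers 2 fell, Spp1 (−2.16, SE 0.39) and Sox9 (−1.59, SE 0.36), while the other 4 had positive values and were not called, so that the median was 0.18. The call of Spp1 held in all 8 leave-outs and that of Sox9 in 4, and without control 2, 2 of 7 markers were lower. Of 10 hepatocyte markers 1 rose, Cyp2e1 (0.87, SE 0.16), and 0 fell. The call of Cyp2e1 held in all 8 leave-outs, and without control 2, 3 of the 10 were higher and 0 lower.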

How the data were processed

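Poly(A) RNA of liver was sequenced as single reads in 8 libraries, 4 per group, per the labels' protocols. Build GRCm38 and HISAT2 2.1.0, with FastQC, Subread and edgeR, are named per the submitters' processing notes. Annotation release, counting settings and strand use were not stated by any source read, so reads of overlapping antisense genes cannot be told apart (14 of the 34 members have such an overlap or a same-strand one in GENCODE vM21). The authors deposited raw counts for 55487 genes. Columns were matched to samples by name, and 4 per-sample columns that match no sample were not used. Groups follow the treatment in the labels, and replicate numbers name libraries in accession order.

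From the counts, filterByExpr (minimum count 10) kept 13312 genes with at least 99.88% of each library's counts, 33 of the 34 members among them. Libraries were scaled by TMM, and sorbate was compared with control in edgeR 4.0.16 under R 4.3.3 by the quasi-likelihood test, which is two-sided, and p-values were adjusted over every gene tested (Benjamini-Hochberg). SEs come from the unshrunk coefficient and the F statistic. Length-scaled levels used merged exons of GENCODE vM21 on GRCm38, which also gave positions and lacked 260 of the genes. Mean group levels use log2(CPM + 1). Alternatives were library size alone, DESeq2 size factors, DESeq2 1.42.0, limma-voom 3.58.1 with sample quality weights, no filter on low counts, a threshold of 0.1 and leaving out each library. The code was tested on simulated counts.

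The 34 members, the 9 pathway lists and the 12 cell type lists were chosen with earlier results of these data known. All members are given. From each list up to 3 called genes with the lowest p, or up to 2 uncalled ones, and binding partners of the members were to be named, and a selection is printed; 1 called gene of these lists is not reported here. Intervals and limits cover counting error only.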

Additional observations from a re-analysis of the deposited data

Results flagged for a closer look

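Of 66 groups of 4 libraries (33 genes in 2 groups), 3 held a library set far from the other 3 by Dixon's criterion for 4 values, and chance flags about 1 in 20 groups. Fcgr2b stood at 25.5 CPM in control 2 against 41.9 to 44.5 CPM in the other controls. Reln stood at 23.1 CPM in control 2 against 27.1 to 27.4 CPM in the other controls. Eng stood at 25.4 CPM in sorbate 1 against 30.3 to 31.1 CPM in the other sorbate libraries.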

How the results depend on the processing

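The count of endothelial genes called lower was 2 of 19 with all libraries, where 12.4% of all genes were called in either direction. It was 4 of 19 with the DESeq2 test (18.4% of all genes) and 4 of 19 at a threshold of 0.1 (20.7%). With no filter on low counts it was 4 of 20 (7.83%), and in limma-voom with sample quality weights 10 of 19 (29.4%). Over the leave-outs it was 14 without control 2 (29.3% of all genes) and 0 without each other library (5.1% to 8.34%). The count of stellate genes called lower, 0, was 1 (Hgf) in limma-voom with weights and ran from 0 to 1 over the leave-outs. Over all genes 818 were higher and 838 lower. Library size alone gave 1300 and 550 and shifted the all-gene median from −0.02 to 0.11 (log2), limma-voom with weights gave 1968 and 1944, and a threshold of 0.1 gave 1337 and 1414. Over the leave-outs these counts ran from 332 to 2053 and from 357 to 1915. Control 2 had the lowest quality weight, 0.309. No member was called in 1 direction under one setting and in the other under another.

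With library size alone the uncalled values of 7 genes changed sign, to 0.040 for Tek, 0.069 for Tie1, 0.058 for Eng, 0.017 for Des, 0.012 for Rgs5, 0.12 for Col1a1 and 0.040 for Dcn. Leaving out libraries gave ranges across 0 for Tek (−0.24 to 0.011), Tie1 (−0.15 to 0.050), Eng (−0.26 to 0.021), Des (−0.36 to 0.035), Pdgfrb (−0.0038 to 0.10), Col1a1 (−0.39 to 0.44), Col3a1 (−0.11 to 0.41), Dcn (−0.26 to 0.0016) and Hamp (−0.14 to 0.41). The causes were not tested. No paired analysis was possible because the labels give the groups no shared replicate numbers. Depth limits Sele, Selp, Des and Acta2 most.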
